A study of Mus musculus with 2 samples.

Results

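The 36 genes described here encode the enzymes, transporters and regulators of fatty acid oxidation and ketone body metabolism, together with a few well-known targets of the nuclear receptor PPARA. They were chosen by name, and the Ensembl identifiers of all 36 were found among the 20505 genes listed in both deposited tables through GENCODE mouse release M21. RNA sequencing compared cultured primary hepatocytes of C57BL/6 mice, freed from the liver by collagenase perfusion and grown with fetal bovine serum. One culture was infected overnight with an adenovirus carrying HuR, an RNA-binding protein and the product of Elavl1, and the other with an adenovirus carrying β-Gal, a bacterial enzyme that serves as a control for the virus. Cells of both groups thus carried an adenovirus, and there was no uninfected group. There was 1 library per group. How many mice lay behind each culture, which promoter drives each insert and what viral dose was used are not stated in the labels.

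Fatty acids that enter a hepatocyte are coupled to coenzyme A, passed into mitochondria as carnitine esters and shortened in a repeating cycle of oxidation, hydration, oxidation and cleavage. Very long and branched chains are first shortened in peroxisomes. In the fasting liver much of the acetyl-CoA is turned into ketone bodies, which are exported to other tissues. PPARA, which senses fatty acids and binds DNA with the partner receptor RXR, raises transcription of many of these genes. HuR binds U-rich and AU-rich stretches, often in the 3′ untranslated region (3′ UTR) of an mRNA.

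Levels are the deposited FPKM values, a unit in which read numbers are scaled by transcript length and library size. Fold changes on the log2 scale were calculated as log2((HuR + 1)/(β-Gal + 1)), and a fold given in words is the ratio of FPKM without the added 1. A gene was called where this log2 value was 1 or more, or -1 or less, which is referred to as 2-fold. Intervals in parentheses are 95% counting intervals of the ratio (exact Clopper-Pearson). They cover counting error only. With 1 library per group no difference between cultures could be tested, and no value has a replicate error.

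The implied library totals were 17671386 reads for HuR and 18357016 reads for β-Gal. Elavl1 stood at 4480 FPKM in the HuR library against 9.67 FPKM in the β-Gal library, in accord with the labels. Of the 8 hepatocyte markers, all were present in both libraries, with albumin (Alb) ranked 1 in each. Of the 20505 listed genes, 2233 had a value of 0 with HuR and 0 had one with β-Gal. All 36 genes reached at least 1 FPKM in both libraries and entered the comparison, among 12905 in all. Their lowest recovered read number was 21.

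Most genes of fatty acid oxidation were somewhat lower in the HuR library, and none was much higher. The log2 fold change was below 0 for 31 of the 36 genes, against a background of 60.7% of the 12905 compared genes. The median was -0.32 for the 36 genes and -0.17 for all compared genes, so that 23 of the 36 lay below the median of all genes. Only Ppara and Cpt1a passed 2-fold, both lower. This is 2 of 36 (5.56%), fewer than the background of 8.31% of genes called lower. None was called higher, where the background was 5.35%. At 1.5-fold, 11 genes were lower (background 23.4%) and 0 were higher (background 12%). The highest log2 fold change was 0.37, that of Acadm. The counting interval of the ratio lay wholly below 1 for 24 of the 36 genes (background 46.3%) and wholly above 1 for 4 (background 26.5%). Fewer hepatocytes and less RNA per cell cannot be told apart in such bulk samples. After centring on the median of all genes, the median of the 36 genes was -0.15, and the share of higher genes among all 2-fold calls was 59.3% rather than 39.2%.

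**Figure D1:**
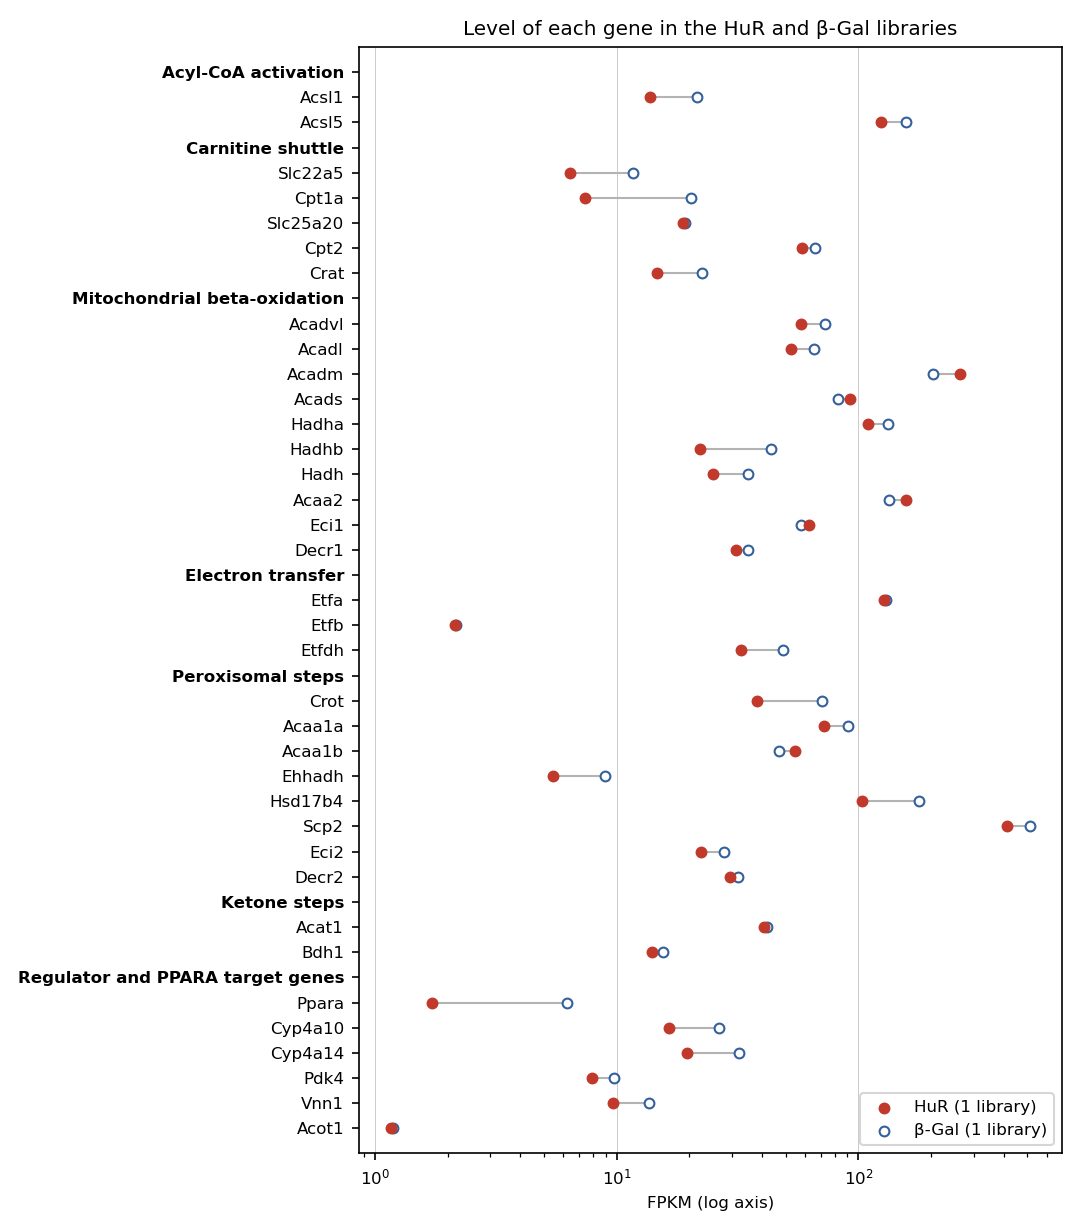
FPKM of each of the 36 genes (log axis) in the HuR library (filled) and the β-Gal library (open), grouped by step of the pathway. Levels run over more than 2 orders of magnitude, with Scp2 highest in both libraries, and only Acadm, Acads, Acaa2, Eci1 and Acaa1b lie higher in the HuR library.

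Ppara, the receptor gene itself, had the lowest fold change of the group. It stood at 1.73 FPKM in the HuR library (46 reads) and 6.26 FPKM in the β-Gal library (173 reads). This was 3.62-fold lower (2.60 to 5.13), with a log2 fold change of -1.41. At a pseudocount of 5 the log2 fold change was -0.74 and Ppara was no longer called. Cpt1a encodes the liver carnitine palmitoyltransferase of the outer mitochondrial membrane, the main control point of long-chain fatty acid entry. It stood at 7.41 FPKM in the HuR library and 20.3 FPKM in the β-Gal library, 2.75-fold lower (2.33 to 3.25). Both genes had their counting interval wholly beyond 2-fold and stayed called after centring on the median of all genes.

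The 3′ UTRs of these genes are shown because HuR is known to bind AU-rich RNA. Sites are from the longest annotated 3′ UTR of each gene in GENCODE M21 (GRCm38), read on the strand of the mRNA, with the motif ATTTA or its longer form TATTTAT in capitals. Ppara has 2 copies of ATTTA and none of TATTTAT in 1561 bases. The first lies at chr15:85801709-85801737 on the plus strand and the second at chr15:85802701-85802729.
Ppara, first: ccaaggttagccATTTAaatgtggcaaaa
Ppara, second: ttcctggtgccgATTTAtggacatggtgg
TATTTAT occurred in 4 of the 36 genes, once in each. The sites lie at chr19:3385104-3385132 (plus strand) for Cpt1a, chr4:107904005-107904033 (minus) for Cpt2, chr6:5483487-5483515 (minus) for Pdk4 and chr10:23904994-23905022 (plus) for Vnn1.
Cpt1a: tttaaatcatgTATTTATtttccagtgcc
Cpt2: taactcagctgTATTTATtgtttaaatag
Pdk4: gccttccctatTATTTATgaacccatggg
Vnn1: gggctattaagTATTTATctcaacatttc
The log2 fold changes of these 4 genes ranged widely, at -1.34 for Cpt1a, -0.18 for Cpt2, -0.27 for Pdk4 and -0.46 for Vnn1. The most copies of ATTTA, 4 in each gene, were in Scp2, Acot1, Pdk4 and Vnn1. Of these, Scp2 had a log2 fold change of -0.32 and Acot1 of -0.02. A match to these letters does not show that HuR bound there.

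Activation of fatty acids was lower for both synthetases. Acsl5, the long-chain acyl-CoA synthetase with the higher level, stood at 124 FPKM in HuR cells and 157 FPKM in β-Gal cells (1.26-fold lower, 1.20 to 1.33). Acsl1, the isoform that is usually prominent in liver, stood at only 13.7 and 21.5 FPKM in the HuR and β-Gal libraries (1.56-fold lower, 1.38 to 1.77). Acsl1 shares 9.91% of its exonic bases with another annotated gene and Acsl5 8.31%, counted on either strand. Reads over such bases may not be assignable to a single gene. Of the same family in the wider list, Acsl3 was at 12.5 FPKM with HuR and 11.5 FPKM with β-Gal (ratio 0.936 to 1.26). Acsl4 was at 11.8 FPKM with HuR and 12.6 FPKM with β-Gal (ratio 0.848 to 1.02). Both intervals included 1, and these 2 genes were named after their values were seen.

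The carnitine shuttle showed a wide spread between its 5 genes, with a median log2 fold change of -0.59. Beside Cpt1a, the carnitine importer of the plasma membrane, Slc22a5 (OCTN2), stood at 6.41 FPKM with HuR and 11.7 FPKM with β-Gal (1.82-fold lower, 1.51 to 2.20). Crat, carnitine acetyltransferase, stood at 14.6 FPKM with HuR and 22.5 FPKM with β-Gal (1.53-fold lower, 1.34 to 1.76). Each of the inner membrane steps had a similar level in both libraries. The carnitine-acylcarnitine translocase Slc25a20 was at 18.9 FPKM in HuR cells and 19.2 FPKM in β-Gal cells, with a ratio of 0.986 (0.880 to 1.10). Cpt2, which regenerates acyl-CoA inside the mitochondrion, was at 58.4 FPKM in HuR cells and 66.1 FPKM in β-Gal cells (1.13-fold lower, 1.04 to 1.23). The level of Cpt2 was 7.88 times that of Cpt1a in the HuR library and 3.25 times in the β-Gal library. For Slc25a20 against Cpt1a the ratio was 2.55 in HuR and 0.942 in β-Gal.

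**Figure D2:**
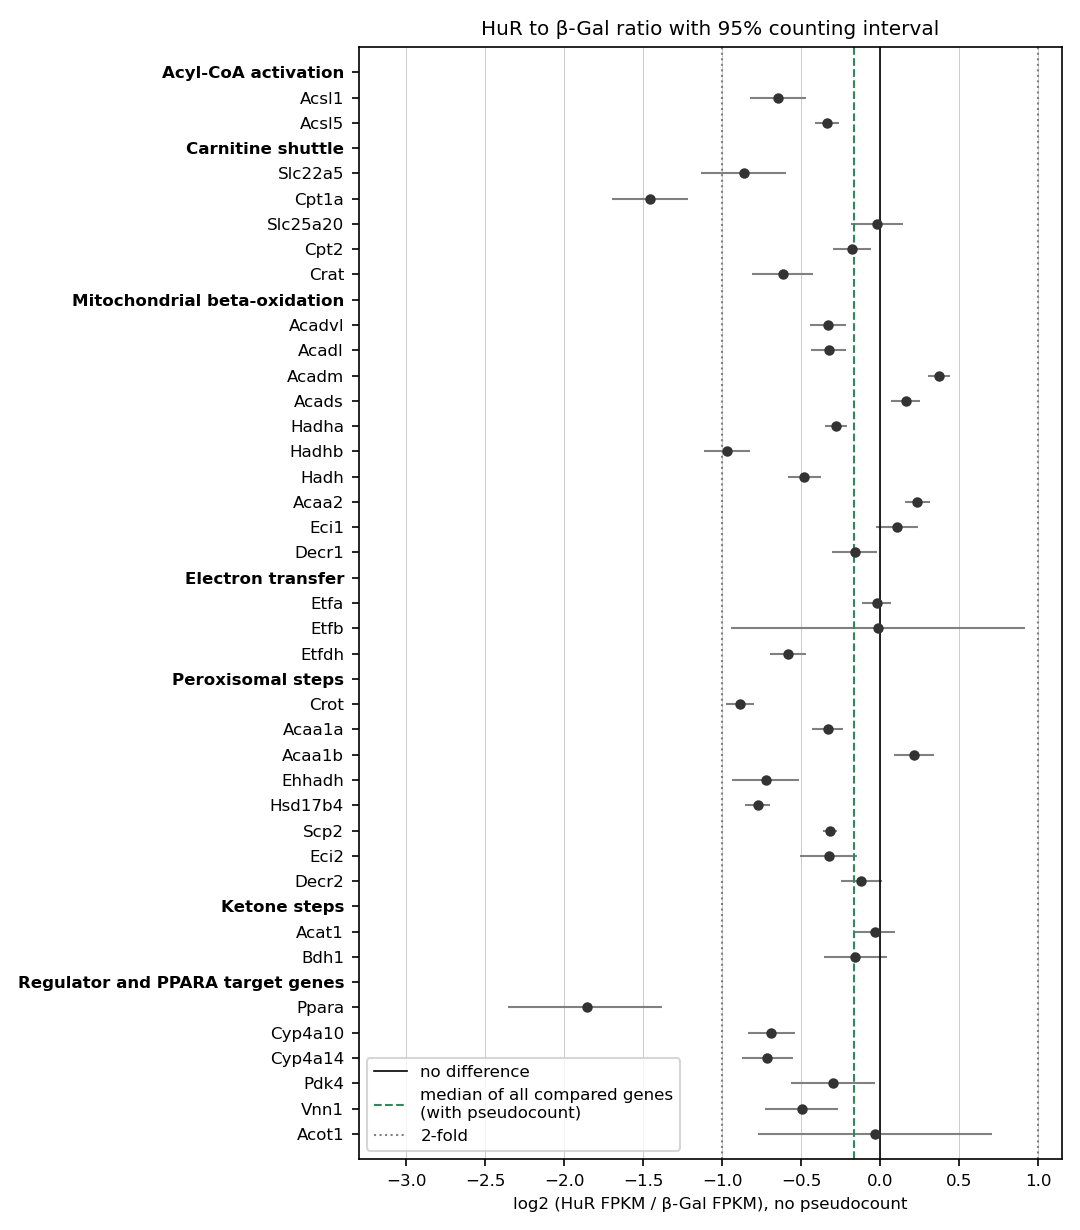
Ratio of HuR to β-Gal FPKM on the log2 scale without a pseudocount for each gene (points) with 95% counting intervals (lines); the dashed line is the median of all compared genes with the pseudocount (-0.17). The intervals of Ppara and Cpt1a lie wholly to the left of the 2-fold line, those of Acadm, Acads, Acaa2 and Acaa1b wholly to the right of 0, and Etfb and Acot1 have the widest intervals.

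Genes of the mitochondrial β-oxidation cycle went both ways, 6 of 10 lower and 4 higher (5 of 10 below the median of all genes), and their summed level was 873 FPKM in the HuR library and 862 FPKM in the β-Gal library. The 4 acyl-CoA dehydrogenases, which carry out the first oxidation, differed in direction, 2 lower and 2 higher. The very-long-chain enzyme Acadvl was at 57.7 FPKM with HuR and 72.6 FPKM with β-Gal (1.26-fold lower, 1.16 to 1.36), and the long-chain enzyme Acadl at 52.4 FPKM with HuR and 65.6 FPKM with β-Gal (1.25-fold lower, 1.16 to 1.35). The medium-chain enzyme Acadm was at 263 FPKM with HuR and 203 FPKM with β-Gal, a ratio of 1.29 (1.23 to 1.36). The short-chain enzyme Acads was at 92.3 FPKM with HuR and 82.6 FPKM with β-Gal, a ratio of 1.12 (1.05 to 1.19). Its log2 fold change of 0.16 turned to -0.22 when the trend on GC content and length was removed, which left Acadm as the only higher gene of these 4. The level of Acadm relative to Acadl was 5.02 in the HuR library and 3.10 in the β-Gal library. Acadvl shares 42.9% of its exonic bases with another gene, so its level is uncertain.

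The trifunctional protein, which performs the last 3 reactions of the cycle on long chains, is built from α subunits encoded by Hadha and β subunits encoded by Hadhb. Hadha stood at 109 FPKM in HuR cells and 133 FPKM in β-Gal cells (1.22-fold lower, 1.16 to 1.28). Hadhb stood at 22.2 FPKM in HuR cells and 43.4 FPKM in β-Gal cells (1.96-fold lower, 1.77 to 2.17), the lowest fold change of the cycle. Its log2 fold change of -0.94 became -1.02, past 2-fold, when both libraries were rescaled to the same summed FPKM. The ratio of Hadha to Hadhb was 4.94 in the HuR library and 3.07 in the β-Gal library. The log2 difference of these ratios was 0.69 with a counting error of 0.0811.

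Of the enzymes that act later or on shorter chains, Hadh, the short-chain hydroxyacyl-CoA dehydrogenase, stood at 25.1 FPKM in HuR and 35.0 FPKM in β-Gal (ratio 0.717, 0.666 to 0.771). Acaa2, the mitochondrial thiolase, stood at 157 FPKM in HuR and 134 FPKM in β-Gal, a ratio of 1.18 (1.11 to 1.24). Eci1 and Decr1 process the double bonds of unsaturated fatty acids. Eci1 was at 62.5 FPKM in HuR and 58.0 FPKM in β-Gal, with an interval that included 1 (0.981 to 1.18). Decr1 was at 31.1 FPKM in HuR and 34.8 FPKM in β-Gal (1.12-fold lower, 1.01 to 1.24). Relative to the median of all genes Decr1 was at 0.01 on the log2 scale. Eci1 turned from 0.11 to -0.19 when the trend on GC content and length was removed.

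Electrons leave the acyl-CoA dehydrogenases through the electron transfer flavoprotein, encoded by Etfa and Etfb, and its membrane dehydrogenase, encoded by Etfdh. Etfa stood at 127 FPKM with HuR and 129 FPKM with β-Gal, a ratio of 0.984 (0.923 to 1.05). Etfdh was at 32.6 FPKM with HuR and 48.8 FPKM with β-Gal (ratio 0.667, 0.617 to 0.722). Etfb was listed at only 2.15 FPKM with HuR and 2.17 FPKM with β-Gal, from 21 and 22 reads, although its product pairs with that of Etfa. Etfb shares 58.2% of its exonic bases with another annotated gene, the highest share among the 36 genes. At this depth its ratio was bounded only between 0.519 and 1.89.

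Peroxisomal genes were lower in 7 of 8 cases, and 6 of 8 lay below the median of all genes, with a summed level of 736 FPKM in the HuR library and 966 FPKM in the β-Gal library. Scp2 made up 55.8% of this sum in HuR and 53.0% in β-Gal. It encodes the sterol carrier protein whose longer form is a peroxisomal thiolase, and stood at 410 FPKM with HuR and 512 FPKM with β-Gal (1.25-fold lower, 1.21 to 1.29). The bifunctional enzymes that hydrate and oxidise the chain were both lower. Hsd17b4, which acts on branched chains and bile acid precursors, was at 103 FPKM with HuR and 177 FPKM with β-Gal (1.71-fold lower, 1.62 to 1.81). Ehhadh, which is induced by PPARA and takes part in dicarboxylic acid breakdown, was at 5.44 FPKM with HuR and 8.97 FPKM with β-Gal (1.65-fold lower, 1.43 to 1.92). Hsd17b4 was 19.0 times the level of Ehhadh in HuR and 19.7 times in β-Gal. Crot, which transfers medium-length chains to carnitine for export to mitochondria, was at 38.1 FPKM with HuR and 70.5 FPKM with β-Gal (1.85-fold lower, 1.74 to 1.97), the lowest fold change of the peroxisomal set.

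The peroxisomal thiolases Acaa1a and Acaa1b are close paralogs in mouse, and reads from one may have been assigned to the other or dropped. Acaa1a stood at 72.0 FPKM in HuR and 90.7 FPKM in β-Gal (1.26-fold lower, 1.18 to 1.35). Acaa1b stood at 54.6 FPKM in HuR and 47.1 FPKM in β-Gal, a ratio of 1.16 (1.06 to 1.26). Its log2 fold change of 0.21 turned to -0.17 with the trend on GC content and length removed. The ratio of Acaa1a to Acaa1b was 1.32 in HuR and 1.93 in β-Gal. Eci2, an enoyl-CoA isomerase found in peroxisomes, was at 22.3 FPKM in HuR and 27.9 FPKM in β-Gal (1.25-fold lower, 1.11 to 1.42). Decr2, the peroxisomal dienoyl-CoA reductase, was at 29.3 FPKM in HuR and 31.8 FPKM in β-Gal, and its interval included 1 (ratio 0.842 to 1.01).

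Both ketone genes of the list had intervals that included 1, and both lay slightly above the median of all genes. Acat1, the mitochondrial thiolase that condenses acetyl-CoA, stood at 40.7 FPKM with HuR and 41.7 FPKM with β-Gal, a ratio of 0.977 (0.896 to 1.06). Bdh1, which interconverts acetoacetate and β-hydroxybutyrate, stood at 13.9 FPKM with HuR and 15.6 FPKM with β-Gal, a ratio of 0.897 (0.783 to 1.03). Of the wider pathway, Slc16a1, the monocarboxylate transporter that carries ketone bodies across the plasma membrane, was at 20.4 FPKM with HuR and 29.5 FPKM with β-Gal.

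**Figure D3:**
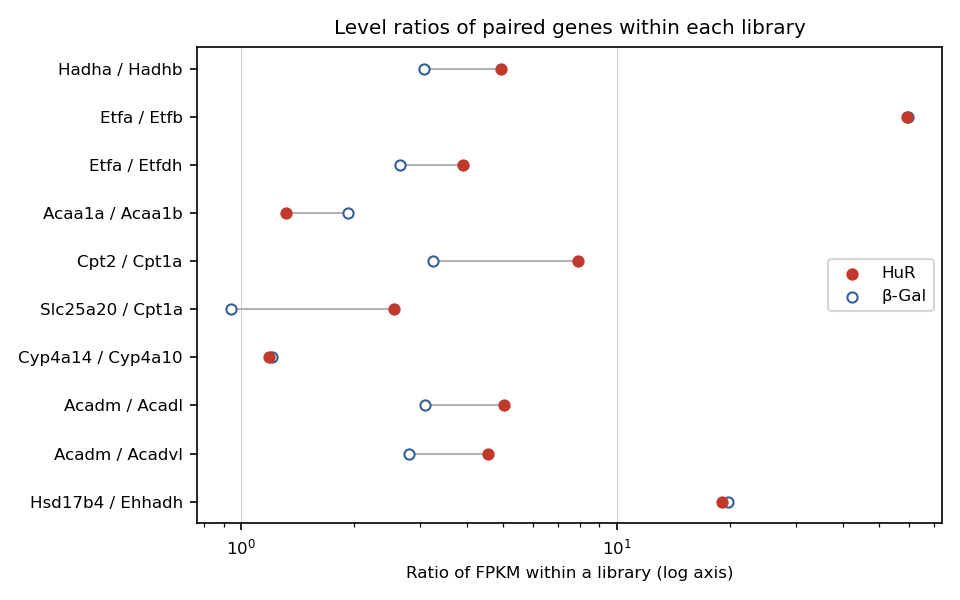
Ratio of the FPKM of paired genes within each library (log axis), HuR filled and β-Gal open; pairs are subunits, paralogs or neighbouring steps and were chosen with the values known. Slc25a20 over Cpt1a and Cpt2 over Cpt1a lie farthest apart between libraries, whereas Etfa over Etfb, Cyp4a14 over Cyp4a10 and Hsd17b4 over Ehhadh nearly coincide; the Etfb levels rest on 21 and 22 reads.

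The list holds 5 known PPARA targets that act outside the steps above. Their log2 fold changes were below 0 for 5 of 5, Acot1 within counting error, against a background of 60.7%, and none passed 2-fold. Relative to the median of all genes 4 of the 5 were lower, all but Acot1. Other PPARA targets are described with their steps and were not counted as a set. As examples, Cpt1a and Ehhadh were lower and Acadm higher. Acaa1b was higher as well, but turned to -0.17 on the log2 scale with the trend on GC content and length removed. These 4 do not give the balance of the steps, since 31 of the 36 genes were below 0 (background 60.7%). The fatty acid ω-hydroxylases Cyp4a10 and Cyp4a14 had similar ratios. Cyp4a10 stood at 16.4 FPKM in HuR and 26.4 FPKM in β-Gal (1.61-fold lower, 1.46 to 1.79), and Cyp4a14 at 19.5 FPKM in HuR and 32.0 FPKM in β-Gal (1.64-fold lower, 1.47 to 1.83). Cyp4a10 has close paralogs in the Cyp4a31 and Cyp4a32 genes, and its value is uncertain for that reason. Vnn1, the pantetheinase that recycles the precursor of coenzyme A, stood at 9.63 FPKM in HuR and 13.6 FPKM in β-Gal (1.41-fold lower, 1.20 to 1.66). Pdk4, the kinase that shuts off pyruvate dehydrogenase when fat is burned, stood at 7.94 FPKM in HuR and 9.76 FPKM in β-Gal (1.23-fold lower, 1.02 to 1.48). Acot1, a cytosolic acyl-CoA thioesterase, was near the lower limit of the comparison at 1.16 FPKM in HuR and 1.19 FPKM in β-Gal, and its interval ran from a ratio of 0.584 to 1.63. The summed level of this set, Ppara included, was 56.3 FPKM in HuR and 89.2 FPKM in β-Gal.

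Beyond the 36 genes, 64 further genes of the pathway were considered, of which 62 were in the tables and 54 reached 1 FPKM in a library. Of these 54, 7 were called lower and 3 higher, and the median log2 fold change was -0.19. These shares are 13.0% lower and 5.56% higher, against backgrounds of 8.31% and 5.35%. Among the regulators, Ncor1, a corepressor that holds nuclear receptors including PPARA inactive, was at 21.6 FPKM with HuR and 63.4 FPKM with β-Gal (2.94-fold lower, 2.73 to 3.16). Ppard, the related receptor PPARδ, was at 88.5 FPKM with HuR and 33.0 FPKM with β-Gal, a ratio of 2.68 (2.49 to 2.88). Lpin1, a phosphatidate phosphatase that also acts as a coactivator of PPARA, was at 20.2 FPKM with HuR and 7.99 FPKM with β-Gal. Rxra, the DNA-binding partner of PPARA, was at 87.0 FPKM with HuR and 80.2 FPKM with β-Gal (ratio 1.09, 1.03 to 1.14).

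Among enzymes and transporters of the wider list, Abcd3, the peroxisomal membrane transporter of fatty acyl-CoA, was at 21.4 FPKM with HuR and 58.6 FPKM with β-Gal (2.74-fold lower, 2.53 to 2.97). Acadsb, a dehydrogenase of short branched chains, was at 4.12 FPKM with HuR and 11.3 FPKM with β-Gal (2.74-fold lower, 2.24 to 3.34). Acot2, the mitochondrial paralog of Acot1, was at 2.22 FPKM with HuR and 8.46 FPKM with β-Gal (ratio 0.262, 0.204 to 0.333), and near-identity with Acot1 makes both values uncertain. Cpt1c, the carnitine palmitoyltransferase homolog best known from the brain, was at 12.5 FPKM with HuR and 1.38 FPKM with β-Gal (ratio 9.06, 6.72 to 12.5). Its level thus exceeded that of Cpt1a in the HuR library only. Aldh3a2, a fatty aldehyde dehydrogenase, was at 33.8 FPKM with HuR and 78.2 FPKM with β-Gal (2.31-fold lower, 2.15 to 2.498). The remaining called genes, named after their values were seen, were Acacb and Cd36, both lower. Further targets of PPARA are given as examples. Angptl4, an inhibitor of lipoprotein lipase, was at 54.0 FPKM with HuR and 95.03 FPKM with β-Gal (1.76-fold lower, 1.65 to 1.87). The lipid droplet coat gene Plin2 was nearly level at 1347 FPKM with HuR and 1313 FPKM with β-Gal (ratio 1.03, 1.01 to 1.05). The hormone gene Fgf21 was at 8.94 FPKM with HuR and 6.85 FPKM with β-Gal (ratio 1.31, 1.01 to 1.66). These 3 genes were likewise chosen after their values were seen, and do not stand for the PPARA targets as a set.

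**Figure D4:**
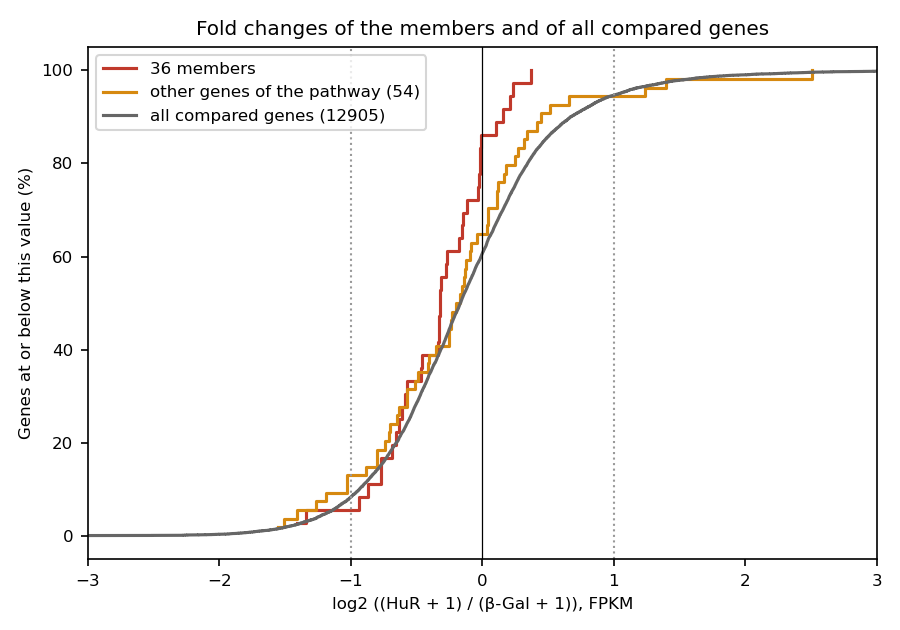
Cumulative share of genes by log2 fold change with a pseudocount of 1 for the 36 genes, the 54 other compared genes of the pathway and all 12905 compared genes; dotted lines mark 2-fold. The curve of the 36 genes ends at 0.37, while 12% of all genes passed 1.5-fold on the higher side.

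An ATTTA motif was found in the longest 3′ UTR of 17 of the 36 genes (47.2%), against 68.7% of 11062 compared genes with an annotated 3′ UTR. TATTTAT was found in 11.1% of the 36 and 28.7% of all. The median 3′ UTR was shorter in the 36 genes, at 748.5 bases against 1269 bases, and ATTTA occurred 1.07 times per kilobase in them against 1.69 times in all. The median log2 fold change was -0.32 for the 17 genes with ATTTA and -0.33 for the 19 without it. Of the 5 higher genes, 4 lacked ATTTA. The median log2 fold change was -0.40 for the 18 genes with the longer 3′ UTRs and -0.24 for the 18 with the shorter. Over all compared genes the median was -0.28 with ATTTA and 0.01 without. Split at 748.5 bases of 3′ UTR instead, all compared genes had a median of -0.31 above that length and 0.04 at or below it. Whether motif or length goes with the difference was not tested. TATTTAT matches are also counted as ATTTA.

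Longer transcripts had lower fold changes in both sets. The Spearman correlation of log2 fold change with mean transcript length was -0.45 across the 36 genes and -0.31 across 12678 compared genes with a length. With GC content it was 0.27 and 0.31. These describe genes that share the same libraries, and genes are not independent replicates. With the trend on GC content and length removed, the median of the 36 genes was -0.34, and 28 of them lay below the median of all genes. Genes changed sign in both directions. Acads, Eci1 and Acaa1b turned below 0, whereas Acat1 (0.11), Slc25a20 (0.041) and Acot1 (0.0036) turned above 0. The count below 0 stayed at 31 of 36.

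Promoters were scanned for the PPARA and RXR element, 2 copies of the hexamer AGGTCA in the same direction with 1 base of any kind between them, on both strands, in windows from 250 bases before to 50 after the start (RefSeq, GRCm38.p6). An entry was present for 28 of the 36 genes; Acaa2, Acat1, Crat, Cyp4a10, Cyp4a14, Decr1, Hsd17b4 and Vnn1 had none. The full repeat was in 0 of the 28 and in 0.0481% of 27025 genes. With so rare a match the 0 says nothing of these 28 genes, and inexact copies were not scanned. The single hexamer AGGTCA, or TGACCT on the other strand, was in 4 of the 28 (14.3%) and in 18.1% of all. These 4 are shown, on the strand of the gene with the hexamer in capitals, because 3 were lower and 1 was higher in the HuR library. The windows lie at chr19:3323180-3323239 (plus strand) for Cpt1a, chr11:70015483-70015542 (minus) for Acadvl, chr4:108118624-108118683 (minus) for Scp2 and chr3:153944834-153944893 (minus) for Acadm. The Scp2 and Cpt1a windows belong to starts inside the GENCODE M21 genes, whose 5′ ends are at chr4:108144998 for Scp2 and chr19:3322334 for Cpt1a. Those 2 hexamers thus do not lie at the 5′ end of the gene.
Cpt1a: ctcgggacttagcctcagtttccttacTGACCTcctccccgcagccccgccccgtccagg
Acadvl: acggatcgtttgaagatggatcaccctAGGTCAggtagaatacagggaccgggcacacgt
Scp2: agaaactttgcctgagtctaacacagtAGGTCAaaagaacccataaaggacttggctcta
Acadm: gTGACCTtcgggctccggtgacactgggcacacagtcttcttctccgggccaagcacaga
The log2 fold changes beside these sequences were -1.34 for Cpt1a, -0.33 for Acadvl, -0.32 for Scp2 and 0.37 for Acadm. The absence of a match in these windows says nothing of elements farther away.

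Markers of other cell types differed between the libraries as well. Of 10 Kupffer cell and macrophage markers, 6 were compared and 4 of these were called higher (background 5.35%). The 10 markers summed to 132 FPKM in HuR and 57.7 FPKM in β-Gal, of which Cd68 alone held 90.36 and 39.97 FPKM. The counting interval lay wholly above 1 for 5 of the 6 compared and included 1 for Clec4f. It also included 1 for Adgre1, Vsig4, Csf1r and Timd4, which were under 1 FPKM in both libraries and not compared. Of 9 stellate cell and fibroblast markers, 5 were compared and all 5 called lower, with Lrat and Pdgfrb at 0 in HuR. All 5 were under 1 FPKM in HuR and entered the comparison only through β-Gal, so the filter fixed their direction. The 9 markers together summed to 1.92 FPKM in HuR and 13.5 FPKM in β-Gal. Of 10 intestinal markers, 8 were compared and 6 called lower. Among the 6, Muc2, Zg16 and Lypd8 likewise entered only through β-Gal. The 10 intestinal markers summed to 471 FPKM in HuR and 504 FPKM in β-Gal. Of this sum Apoa4, which hepatocytes also make, held 452 FPKM in HuR and 414 FPKM in β-Gal. The other intestinal markers summed to 18.6 FPKM in HuR and 90.2 FPKM in β-Gal, and Cdx1 was at 0 in HuR. Cholangiocyte markers had 1 of 6 called higher, Krt7, and 2 lower, Epcam and Cldn7. Krt7 entered the comparison only through HuR, and Epcam and Cldn7 only through β-Gal. Of the 6, 4 were below 0 on the log2 scale, and Krt7 and Spp1 were above. The cholangiocyte markers summed to 84.2 FPKM in HuR and 70.1 FPKM in β-Gal, of which Spp1 alone held 71.9 FPKM in HuR and 50.8 FPKM in β-Gal. Endothelial markers had 1 of 5 called higher (summed 20.2 and 12.8 FPKM in HuR and β-Gal), with Clec4g at 0 in HuR. Adipocyte, muscle and kidney tubule markers listed in the tables (5 of 5, 4 of 5 and 1 of 5) were all under 1 FPKM in both libraries. Intestine also expresses Acsl5 and several other genes of fatty acid oxidation, and the part of these cells in the differences above was not tested. The hepatocyte markers themselves summed to 31017 FPKM in HuR and 28204 FPKM in β-Gal. Of this sum Alb alone held 27642 FPKM in HuR and 25353 FPKM in β-Gal. Of the 8, 3 were below 0 on the log2 scale and 5 above, and 1 was called, Cps1, which was lower. The counting interval lay wholly below 1 for 3 of them, Hnf4a and Cyp2e1 included, and wholly above 1 for 4.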

How the data were processed

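The authors deposited 1 FPKM value per gene for 1 HuR and 1 β-Gal library. Per the submitters' processing notes, TopHat2, HTSeq 0.6.1 and GRCm38 were used, in no stated order or role. Which annotation release, FPKM calculation, strand setting and gene filter were used is not given in the sources used here. No gene without a β-Gal value was analysed here, so a gene found only with HuR could not count as higher.

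Identifiers of 20133 genes matched GENCODE M21. FPKM values moved in steps of whole reads over the rounded mean transcript length, which gave the library totals; 71.2% of genes, and 19 of the 36, lay within 0.02 of a whole read in both libraries. Other read numbers are estimates. Reads served for intervals only. The comparison took the 12905 genes that reached 1 FPKM in a library, with a pseudocount of 1 and a threshold of 2-fold. With 1 library per group there is no test. The method was run on simulated data that held counting error only. Those data had no variation between cultures, so they say nothing of replicate error.

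The 36 genes and all lists were chosen with earlier results of these data known. All 36 genes are named. Of the wider pathway list, the 8 largest differences at 5 FPKM or more are named by rule and others for their role; some results of that list are not reported here, and its counts leave them out. Alternatives changed the pseudocount, filter, threshold, centring, scaling and the GC content and length trend (polynomials of degree 3). Python 3.11.15, numpy 2.4.6, pandas 2.3.3, scipy 1.17.1 and matplotlib 3.10.9 were used.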

Additional observations from a re-analysis of the deposited data

How the results depend on the processing

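No paired analysis was possible because each group was 1 library. Of all compared genes, 1072 were lower and 691 higher as reported. The number lower was 1762 at a pseudocount of 0.1, 330 at a pseudocount of 5 (with 260 higher), 660 with the median set to 0 (with 960 higher) and 3026 at 1.5-fold (with 1555 higher). With a minimum of 5 FPKM, 444 were higher. The count of lower genes among the 36 was 2 as reported, 1 at a pseudocount of 5 and 11 at 1.5-fold. Rescaling both libraries to the same summed FPKM added Hadhb, to 3 of 36, which is within 1.5 times. In the wider pathway list the 7 lower genes became 3 at a pseudocount of 5 and 15 at 1.5-fold. After centring on the median of all genes, the median of the 36 genes was -0.15. The step medians were then -0.31 for activation, -0.052 for mitochondrial β-oxidation, 0.14 for electron transfer, -0.16 for peroxisomal steps and 0.076 for ketone steps, so electron transfer and ketone steps changed sign. With the GC content and length trend removed, the medians were -0.80 for the carnitine shuttle and -0.47 for electron transfer. The electron transfer median, of 3 genes, was -0.30 without Etfb, which falls below the minimum of 5 FPKM. Leaving out Acadvl and Etfb, an alternative chosen after seeing the data, left the median of the 36 near its value at -0.32. Depth limits Etfb and Acot1, whose intervals allow ratios well below and above 1.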

Other observations

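Ranked by FPKM among the 20505 listed genes, Cpt1a stood at rank 7409 in the HuR library and 5030 in the β-Gal library, and Ppara at rank 10990 in HuR and 8463 in β-Gal. Acadm stood at rank 454 in HuR and 568 in β-Gal, and Scp2, the most abundant of the 36 genes, at rank 282 in HuR and 207 in β-Gal. The 36 genes together made up 0.275% of the summed FPKM of the HuR table and 0.337% of that of the β-Gal table.

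Genes for related reactions outside the main cycle lay on both sides, and 35 of the 54 compared genes of the wider pathway list were below 0 on the log2 scale (background 60.7%). Acot12, an acyl-CoA thioesterase, stood at 14.6 FPKM in HuR and 27.7 FPKM in β-Gal (1.91-fold lower, 1.68 to 2.16). Acad10, of the acyl-CoA dehydrogenase family, stood at 4.23 FPKM in HuR and 7.56 FPKM in β-Gal (1.79-fold lower, 1.496 to 2.14), and Hacl1, a peroxisomal lyase of branched chains, at 29.8 FPKM in HuR and 46.7 FPKM in β-Gal (1.57-fold lower, 1.42 to 1.73; 33.3% of its exonic bases are shared with another gene). Acad9 stood at 19.9 FPKM in HuR and 21.7 FPKM in β-Gal, and its interval included 1 (ratio 0.811 to 1.03). Acad11, an acyl-CoA dehydrogenase of long-chain hydroxy acids, stood at 28.1 FPKM in HuR and 17.4 FPKM in β-Gal (ratio 1.61, 1.46 to 1.79). Acad12 stood at 16.9 FPKM in HuR and 12.2 FPKM in β-Gal, and Hsd17b10, a mitochondrial hydroxyacyl-CoA dehydrogenase, at 118 FPKM in HuR and 94.4 FPKM in β-Gal. The liver fatty acid binding protein gene Fabp1 stood at 170 FPKM in HuR and 119 FPKM in β-Gal (ratio 1.43, 1.33 to 1.55). None of these 8 passed 2-fold, and they were chosen after their values were seen.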
